A study of Mus musculus with 6 samples.

Results

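The genes of 9 neuronal calcium-binding proteins, Pvalb, Calb1, Calb2, Hpca, Ncald, Vsnl1, Ncs1, Necab1 and Necab2, were followed on 6 Affymetrix mouse expression arrays from 3 auditory brainstem nuclei at 2 ages. They were taken as a named set out of 18193 genes with a probe set of their own. A gene was read from its probe set of highest mean among those that the platform annotation assigns to that gene alone, and its other probe sets served as a check. The 9 genes had 19 such probe sets, and all 9 passed the filter on low values and were tested among 12958 genes. Auditory nerve fibres end in VCN, the ventral part of the cochlear nucleus. Neurons of LSO, the lateral superior olive, compare sound level between the ears. MNTB, the medial nucleus of the trapezoid body, holds glycinergic neurons driven by the calyx of Held, a giant synapse from VCN. All mice were male C57BL/6J, with no genetic change or treatment named for any pool, and 1 array held the pooled tissue of a nucleus from 6 animals at postnatal day 3 (P3) or from 3 animals at postnatal day 14 (P14). Hearing starts between these ages in mice. No pool was repeated, so the error of a mean difference between ages comes from its spread over the 3 nuclei, not over animals. Errors after ± are limma's moderated standard errors (SE), for which a gene's own spread is drawn towards that of genes of like level. The labels do not say if pools of one age shared their animals.

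Values are log2 expression values as deposited (RMA), on which a difference of 1 is a doubling. Array medians were 6.27 to 6.31. The range of the unspiked bacterial Trp control probe sets, 2.84 to 4.42, was taken as background. Pool size went with age, and so did the 3' minus 5' signal of Gapdh, which reflects RNA quality, at 1.21 to 1.41 at P3 and 1.06 to 1.11 at P14; the part of either in the age differences cannot be told apart from age. The defining markers named here were each highest in the same nucleus at both ages, but not all were confined to it. Atoh7, a transcription factor of VCN bushy cells, stood at 9.46 and 11.07 in VCN and at 5.92 to 7.93 elsewhere, the glycine transporter gene Slc6a5 was highest in MNTB (12.50 at P3 and 13.02 at P14), and the cholinergic gene Slc18a3, a marker of olivocochlear and motor neurons, stood at 9.80 and 9.88 in LSO and at 4.71 to 5.46 elsewhere. Esrrb, highest in MNTB at each age (8.20 and 8.54), also read 7.93 in VCN at P14. Otp, highest in MNTB at each age (9.72 and 7.74), also read 8.22 in LSO at P3. In pooled tissue fewer cells of a type and less RNA per cell cannot be told apart.

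Calcium ions that enter a neuron during an action potential are caught within milliseconds by proteins with EF-hand loops. Parvalbumin (Pvalb), calbindin (Calb1) and calretinin (Calb2) act mainly as buffers, which shape how long calcium stays free, and are classical markers of auditory brainstem neurons and their endings. Hippocalcin (Hpca), neurocalcin delta (Ncald), visinin-like protein (Vsnl1) and neuronal calcium sensor (Ncs1) are sensors of one family that carry a myristoyl group; most of them move to membranes when they bind calcium. Necab1 and Necab2 join an EF-hand region to a monooxygenase-like domain and mark sets of neurons in brain and spinal cord.

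Between P3 and P14 the 9 genes did not move as a group. Pvalb rose about 10.8-fold in the mean of the nuclei, 5 genes (Hpca, Ncald, Ncs1, Necab1 and Necab2) fell, and Calb1, Calb2 and Vsnl1 did not pass the test. With limma, age and nucleus as additive terms and an adjusted p below 0.05, 6 of 9 passed, where 41.0% of all tested genes did. In the upward direction it was 1 of 9 against a background of 23.4%, and in the downward direction 5 of 9 against 17.7%. The median age difference was -0.52 over the 9 genes and 0.03 over all tested genes. The P3 and P14 arrays did not overlap for 5 of the 9 (Pvalb, Hpca, Ncald, Ncs1 and Necab2), a share near the 53.6% of all tested genes.

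**Figure D1:**
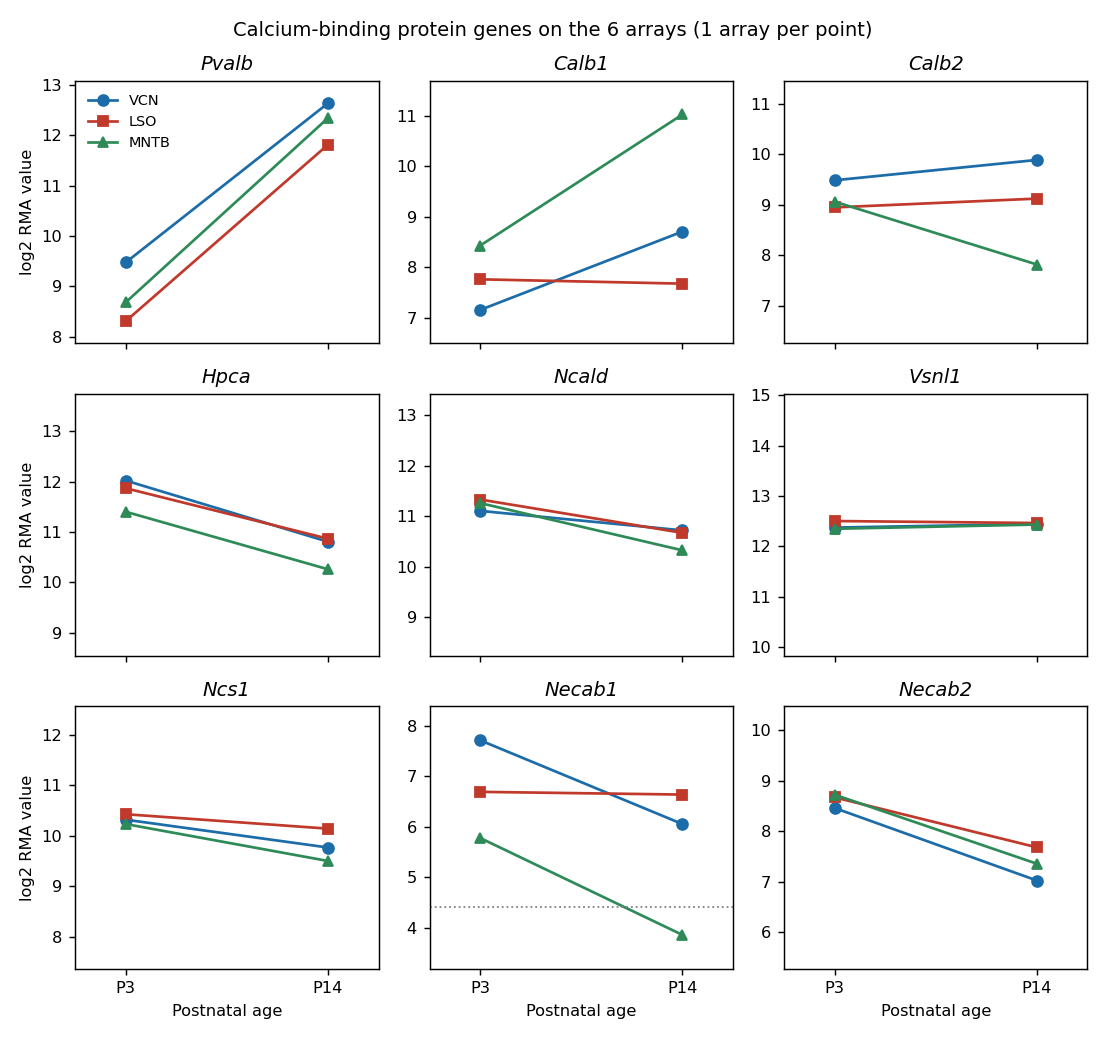
Deposited log2 value (y axis) of the 9 genes at P3 and P14 (x axis), 1 point per array, with a line for each nucleus; every panel spans 5.2 log2 units, and the dotted line in the panel of Necab1 marks the highest background control value, 4.42. Pvalb climbs in parallel in the 3 nuclei, Vsnl1 is flat near 12.4, and the lines of Calb1, Calb2 and Necab1 diverge, with MNTB at P14 highest for Calb1 and lowest for the others.

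Promoters are shown for 3 of the genes, Pvalb (which rose), Necab2 (which fell) and Vsnl1 (no call). RefSeq's promoter table (GRCm38.p6) held entries for 5 of the 9 genes, and only these 3 had an entry at the gene's outermost start. Each line gives the 250 bases before the start, read 5' to 3' on the gene's strand: chr15:78206401-78206650 (minus strand) for Pvalb, chr8:119446469-119446718 (plus strand) for Necab2 and chr12:11436579-11436828 (minus strand) for Vsnl1. Capitals mark matches, on either strand, to a searched motif. The motifs were the TATA box, with the letters TATAAA, the CCAAT box, with the letters of its name, the GC box, with the letters GGGCGG, the E-box, with the letters CANNTG, and the cyclic AMP response element, with the letters TGACGTCA.
Pvalb: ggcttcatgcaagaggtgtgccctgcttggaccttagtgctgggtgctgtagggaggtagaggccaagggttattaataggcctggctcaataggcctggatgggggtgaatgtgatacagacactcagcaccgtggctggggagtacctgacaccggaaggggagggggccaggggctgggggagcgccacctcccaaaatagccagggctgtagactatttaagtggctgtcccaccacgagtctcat
Necab2: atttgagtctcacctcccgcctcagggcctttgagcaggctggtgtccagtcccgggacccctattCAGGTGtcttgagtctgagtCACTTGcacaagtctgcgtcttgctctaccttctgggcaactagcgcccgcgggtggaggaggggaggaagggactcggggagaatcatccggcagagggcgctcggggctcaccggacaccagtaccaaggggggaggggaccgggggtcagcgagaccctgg
Vsnl1: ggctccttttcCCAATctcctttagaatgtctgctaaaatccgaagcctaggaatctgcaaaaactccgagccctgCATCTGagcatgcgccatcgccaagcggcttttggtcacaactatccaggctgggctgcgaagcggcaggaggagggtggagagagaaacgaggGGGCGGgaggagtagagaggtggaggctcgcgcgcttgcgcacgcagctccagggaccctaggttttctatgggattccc

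The Pvalb window held 0 matches and 4 CpG dinucleotides, against a median of 6 CpG over 32536 promoter windows of the same length. The Necab2 window held 2 E-boxes, which overlap none of the other motifs, and 13 CpG. The Vsnl1 window held 1 CCAAT box, 1 GC box and 1 E-box, and 14 CpG. Pvalb and Vsnl1 each had another entry, at a start inside the gene, whose window is not shown. That of Pvalb held 1 E-box and 23 CpG, and that of Vsnl1 held 1 CCAAT box and 4 CpG. Over all windows 12.3% had a TATA box, 33% a GC box, 33.8% a CCAAT box, 66.2% an E-box and 1.56% the cyclic AMP element. A match describes letters only, and no binding was measured.

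Of the buffers, Pvalb rose in all 3 nuclei. This protein loads calcium slowly and is typical of fast-spiking neurons. At P3 its probe set 1417653_at read 9.48 (VCN), 8.31 (LSO) and 8.68 (MNTB). At P14 it read 12.63, 11.81 and 12.34 in the same order. Every P14 array lay at least 2.33 log2 units above every P3 array, and VCN was the highest and LSO the lowest at each age. By nucleus the level was 3.16 higher in VCN (8.92-fold), 3.50 higher in LSO (11.3-fold) and 3.65 higher in MNTB (12.6-fold). The mean rise was 3.44 ± 0.11 (moderated SE, limma adjusted p = 0.000243), which ranked at 32 from the highest of 12958 genes. Pvalb has only this probe set on the array, so no second probe set checks it.

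Calb1, which encodes a buffer that binds calcium fast, was set apart by MNTB. Its probe set 1417504_at read 7.16 (VCN), 7.76 (LSO) and 8.43 (MNTB) at P3. At P14 it read 8.71, 7.68 and 11.03. The MNTB array of P14 was far above the other 5, and the ages overlapped. MNTB was higher at P14 by 2.6 (6.06-fold) and VCN by 1.55 (2.94-fold), whereas the LSO difference was -0.09. Because these differences were so unequal, the mean of 1.36 ± 0.46 did not pass (limma adjusted p = 0.0616). The mean passed in 3 of 15 tested alternatives. Without either LSO array, and so without the nucleus that did not rise, it was 2.08 and passed. It was 1.26 without either VCN array and 0.73 without either MNTB array, and passed in neither case. The remaining pass came when only genes above the 60th percentile were tested (limma adjusted p = 0.0486). Without nucleus in the model the adjusted p was 0.224. In the order of the 6 levels, MNTB at P14 led VCN at P14 by 2.32, beyond the residual spread of 0.57, while VCN at P14 and MNTB at P3 (0.28 apart), the 2 LSO arrays (0.09) and the LSO array of P14 and VCN at P3 (0.52) were within it.

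Calb2 went the other way in MNTB. Calretinin is a buffer that binds calcium cooperatively and is known from VCN neurons and their large endings. Its only probe set, 1451129_at, read 9.49 (VCN), 8.95 (LSO) and 9.06 (MNTB) at P3, and 9.89, 9.12 and 7.82 at P14. The MNTB array of P14 was the lowest by 1.13, and the VCN arrays were the highest 2. P14 minus P3 came to 0.40 for VCN, 0.17 for LSO and -1.25 for MNTB (2.37-fold lower at P14). The mean of -0.22 ± 0.31 did not pass (limma adjusted p = 0.600, 95% confidence interval -0.99 to 0.55). Without either MNTB array it was 0.29. In the order of levels, VCN at P3, LSO at P14, MNTB at P3 and LSO at P3 followed one another by 0.06 to 0.36, within the residual spread of 0.38.

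Among the sensors, Hpca fell the most evenly. Hippocalcin is a calcium sensor first known from hippocampal neurons. Probe set 1450930_at read 12.02 (VCN), 11.87 (LSO) and 11.40 (MNTB) at P3, and 10.81, 10.87 and 10.26 at P14. No P14 array reached a P3 array, and MNTB was the lowest at each age. The differences were -1.21, -1.0 and -1.14, and the mean was -1.12 ± 0.07 (limma adjusted p = 0.000456), a level 2.17-fold higher at P3. These differences spanned only 0.21, where the median span over all tested genes was 0.35.

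Ncald, a sensor that binds clathrin and guanylate cyclases, fell less. Probe set 1417568_at read 11.11 (VCN), 11.33 (LSO) and 11.26 (MNTB) at P3, and 10.72, 10.67 and 10.33 at P14. The ages did not overlap, and MNTB at P14 was the lowest. The differences were -0.39 in VCN, -0.66 in LSO and -0.94 in MNTB, with a mean of -0.66 ± 0.12 (limma adjusted p = 0.00689).

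Ncs1, which regulates phosphatidylinositol kinase and release at synapses, fell by 0.52 ± 0.11 (limma adjusted p = 0.0126). Probe set 1434887_at read 10.32 (VCN), 10.43 (LSO) and 10.24 (MNTB) at P3, and 9.77, 10.14 and 9.50 at P14. The ages did not overlap, but LSO at P14 lay only 0.09 under MNTB at P3, within the residual spread of 0.13. The call was lost when either MNTB array was left out (-0.42, adjusted p = 0.0797 for P3 and 0.0760 for P14) and when the 3 probe sets were summarised by their median (-0.11, adjusted p = 0.534).

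Vsnl1, a sensor that is abundant in many neurons, was level. Probe set 1450055_at read 12.37 (VCN), 12.50 (LSO) and 12.35 (MNTB) at P3, and 12.44, 12.46 and 12.43 at P14. All 5 neighbours in the order of levels were closer than the residual spread of 0.07. The mean difference was 0.04 ± 0.06 (limma adjusted p = 0.612), with a 95% confidence interval of -0.10 to 0.18.

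Both NECAB genes fell. Necab2, whose protein binds metabotropic glutamate and adenosine receptors, read 8.46 (VCN), 8.67 (LSO) and 8.72 (MNTB) at P3 (probe set 1418881_at), and 7.02, 7.68 and 7.35 at P14. The ages did not overlap, and VCN was the lowest at each age. The differences were -1.44, -0.99 and -1.37, with a mean of -1.27 ± 0.13 (limma adjusted p = 0.00135), or a level 2.40-fold higher at P3.

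Necab1 was lowest in MNTB at each age. Probe set 1457142_at read 7.71 (VCN), 6.69 (LSO) and 5.78 (MNTB) at P3, and 6.05, 6.64 and 3.86 at P14. The ages overlapped because LSO stayed in place, at a difference of -0.05, while the VCN difference was -1.66. The MNTB array of P14 lay within the background range, so the MNTB difference of -1.92 is bounded at no less than a drop of 1.36 from the highest control value. The mean was -1.21 ± 0.36 (limma adjusted p = 0.0398). That call was the least stable of the 6: it was lost without any one of the VCN or MNTB arrays (-0.99 and -0.86, adjusted p = 0.115 to 0.166), without nucleus in the model (0.256), with no filter (0.0593) and with no intensity trend (0.0521).

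**Figure D2:**
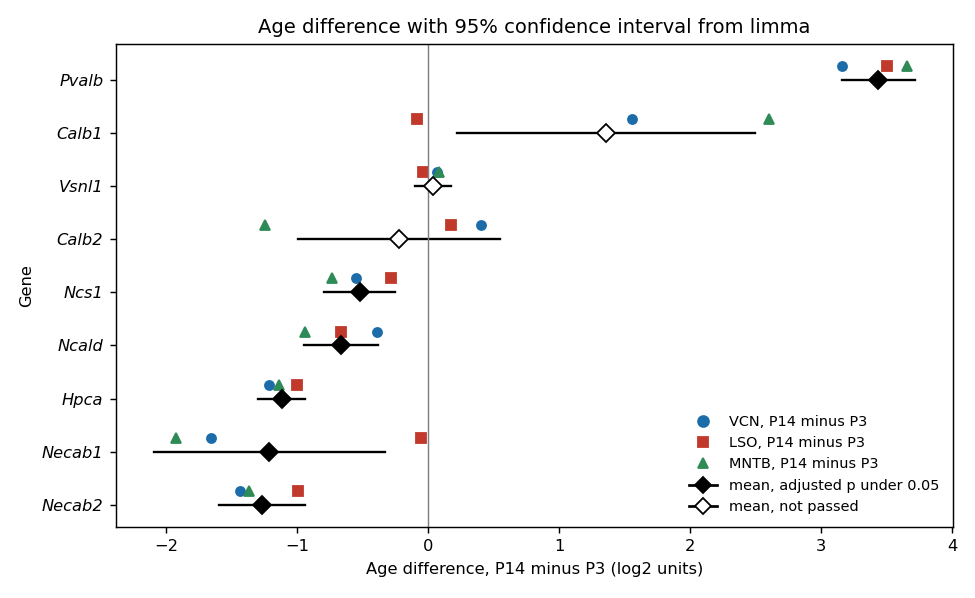
Age difference P14 minus P3 in log2 units (x axis) for each gene (y axis): diamonds with bars are the limma mean over 3 nuclei and its 95% confidence interval, filled where the adjusted p was below 0.05, and coloured marks are the single nuclei. Pvalb stands alone at 3.44, the falls run from -0.52 to -1.27, and the marks of Calb1, Calb2 and Necab1 are the widest apart.

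The age differences of the 3 nuclei were farthest apart for Calb1, Necab1 and Calb2. The span between the largest and smallest age difference of the 3 nuclei was 2.68 for Calb1, 1.87 for Necab1 and 1.65 for Calb2, at percentiles 99.8, 99.0 and 98.5 of all tested genes. The Necab1 span rests on the MNTB array of P14 in the background range. With all values raised to at least the highest control value, an alternative chosen after seeing the data, it was 1.61, at percentile 98.5. The measured span was 0.12 to 0.55 for the other 6. With 1 array for each nucleus and age, this difference between nuclei could not be tested. At P14 the MNTB value of Calb1 was 10.2-fold that of LSO and 4.99-fold that of VCN. At P3 these ratios were 1.59 and 2.42. For Calb2 the MNTB array of P14 was 2.47-fold below LSO and 4.21-fold below VCN, while at P3 MNTB was 0.11 above LSO and 0.42 below VCN. For Necab1 MNTB was the lowest nucleus at each age, at -0.91 against LSO and -1.94 against VCN at P3, and at -2.78 and -2.20 as measured at P14, with that array in the background range.

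Contrasts between nuclei averaged over the ages were passed by 0 of the 9 genes in limma, where few genes passed at all: 0.162% for MNTB minus LSO, 0.602% for MNTB minus VCN and 0.370% for VCN minus LSO. At an unadjusted p below 0.05 the counts were 5 (Calb1, Hpca, Ncs1, Necab1 and Pvalb), 5 (Calb1, Calb2, Hpca, Necab1 and Pvalb) and 2 (Necab2 and Pvalb), where 6.80%, 9.53% and 8.98% of all tested genes had such a p. The errors of these contrasts come from the same residual spread over nuclei and ages, and not from repeated pools of a nucleus. The lowest adjusted p was that of Pvalb for VCN minus LSO, at 0.99 ± 0.14 (limma, 0.0702). Among the tested alternatives this contrast of Pvalb passed only without the VCN array of P14 (1.2), where VCN rests on its P3 array alone. The gap was 1.16 at P3 and 0.82 at P14. Hpca for MNTB minus VCN was at -0.58 ± 0.09 (adjusted p = 0.0827), and lower in MNTB at both ages. Necab1 for MNTB minus VCN was at -2.07 ± 0.44 (0.172) and Calb1 for MNTB minus LSO at 2.01 ± 0.57 (0.521), also with the same sign at both ages.

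**Figure D3:**
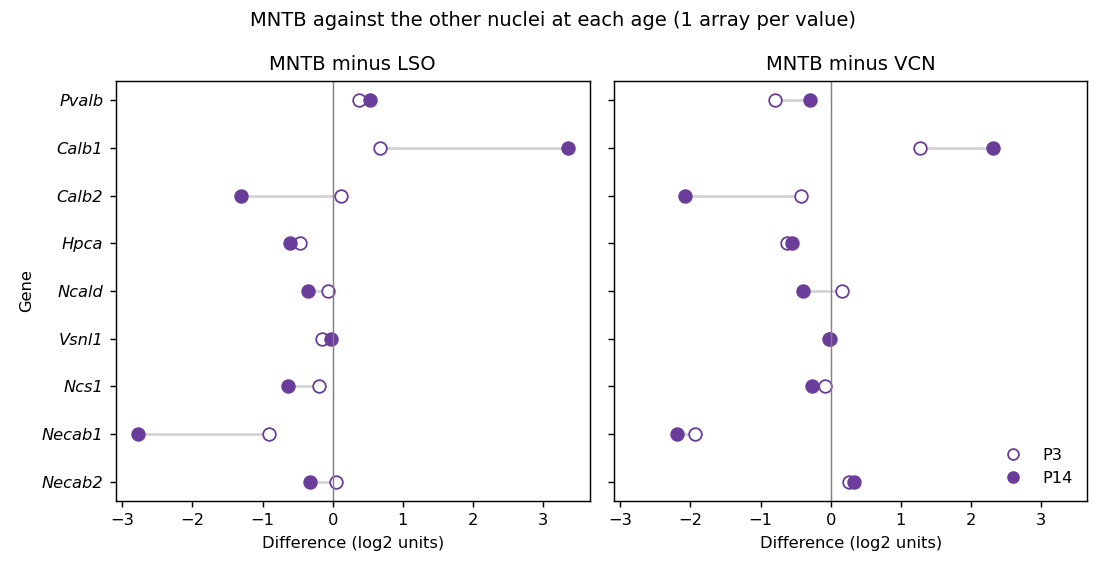
Difference between the MNTB array and the LSO array (left) or the VCN array (right) in log2 units (x axis) for each gene (y axis), open at P3 and filled at P14, 1 array per value. Calb1 reaches 3.35 and 2.32 at P14, Necab1 and Calb2 lie at -1.31 to -2.78 at P14, and the other genes lie between -0.79 and 0.53.

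The other probe sets tested how far these values rest on 1 set of probes. For Calb1 the second probe set, 1456934_at, gave 1.21 in VCN, 0.38 in LSO and 3.15 in MNTB, and 1448738_at gave 0.57, -0.22 and 3.12, although it lay in the background range on 4 arrays. All 3 put MNTB at P14 highest. The remaining one, 1458836_at, was in the background range on all 6 arrays. The second probe set of Hpca gave -1.47, -0.99 and -1.48 and that of Ncald -0.56, -0.70 and -0.96, in the same direction in every nucleus, and the remaining one of Ncald, at 4.34 to 4.69, was close to background. The second probe set of Necab1 gave -1.06, -0.18 and -1.08 but was in the background range on 5 arrays. That of Vsnl1 gave 0.17, 0.02 and 0.14. For Ncs1 the probe sets disagreed: 1460293_at gave -0.23, 0.21 and -0.32 and 1450146_at gave 0.12, -0.15 and -0.66, so that only the MNTB difference was lower with all 3.

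**Figure D4:**
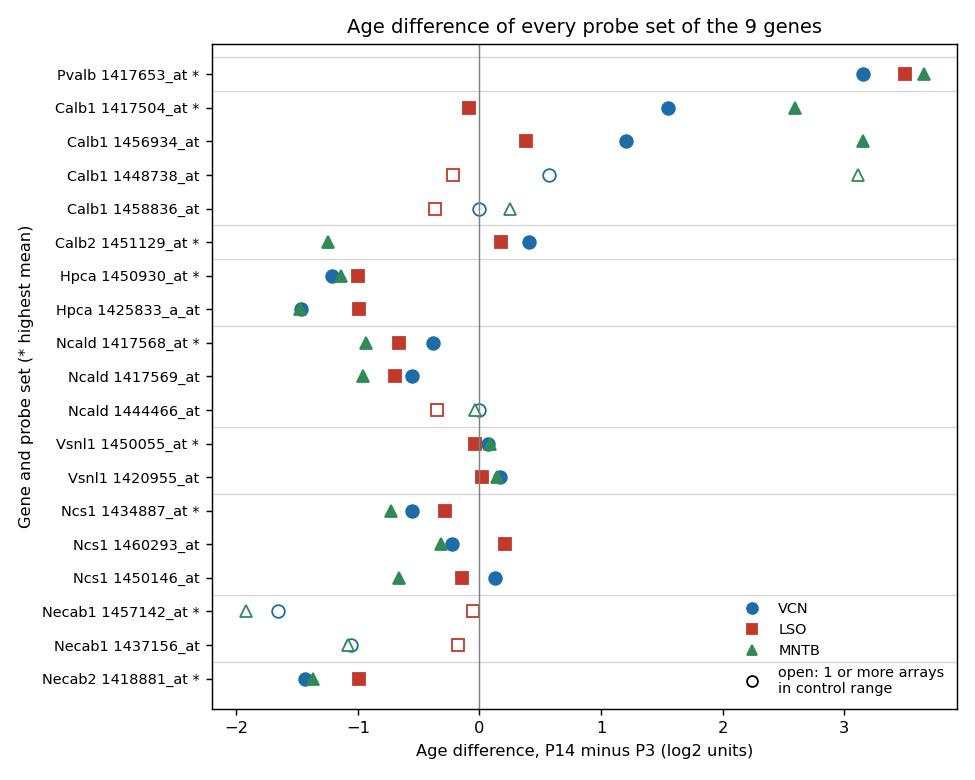
Age difference P14 minus P3 in log2 units (x axis) of all 19 probe sets of the 9 genes (y axis, the one of highest mean starred), 1 mark per nucleus, open where the probe set lay in the background range on 1 or more arrays. The probe sets of Hpca agree in direction in every nucleus, 3 of 4 for Calb1 place MNTB far to the right, and those of Ncs1 fall on either side of 0.

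Cell type markers moved with age as well. Of 9 neuron markers, 5 fell (Rbfox3, Syt1, Tubb3, Map2 and Stmn2) and 2 rose (Snap25 and Eno2), and the mean of the list was 11.62 to 11.71 at P3 and 11.03 to 11.43 at P14, lowest on the MNTB array of P14. All 7 oligodendrocyte markers with a probe set rose, and their mean went from 7.81 to 9.97 at P3 to 12.38 to 12.56 at P14. Of 8 astrocyte markers 4 rose (Gjb6 by 3.49, Gfap by 1.81, Slc1a2 and Aqp4) and 2 fell, of 5 microglia markers 4 rose, and all 4 endothelial markers rose. Beside these counts of markers, 23.4% of all tested genes rose and 17.7% fell. The microglia count was 3 with no filter on low values and with no intensity trend. Both the microglia and the endothelial count were lower without either LSO array. The choroid plexus marker Ttr read 12.58 in VCN at P14 and 6.61 to 6.93 on the other arrays. The part of these cells in the differences of the 9 genes was not tested. When each array was shifted so that the mean of the neuron markers was equal, an alternative chosen after seeing the data and given without a test, the age difference became 3.82 for Pvalb, 1.74 for Calb1, -0.88 for Necab2, -0.83 for Necab1, -0.73 for Hpca, -0.28 for Ncald, -0.14 for Ncs1, 0.42 for Vsnl1 and 0.16 for Calb2, whose sign turned. This shift moved the median of all tested genes from 0.03 to 0.42. Some of the neuron markers are genes of growing neurites, and their part in the falls was not tested. VCN tissue also had a higher mean of the granule cell markers. Over 7 of 8 with a probe set it was 8.66 at P3 and 9.17 at P14 in VCN and 5.86 to 6.79 elsewhere. At P3 Zic1, Zic2, Neurod1 and Pax6 were each highest in VCN (9.90 to 12.45), as was Fat2 (7.19). Gabra6 was in the background range in all nuclei at P3 (3.41 to 3.61), and Cbln3 read 5.27 in VCN and 5.13 in MNTB. At P14 Gabra6 and Cbln3 read 7.97 and 8.54 in VCN and at most 4.37 and 6.53 elsewhere. Eomes, a marker of unipolar brush cells, which can contain calretinin, stood at 9.64 in VCN at P3, 6.54 in VCN at P14 and within the background range on the other 4 arrays; its part in the high Calb2 of VCN was not tested. The Purkinje cell marker Ppp1r17 fell under the filter on low values. It was at 4.09 to 4.42 in VCN and MNTB, within or close to the background range, and at 5.26 and 6.07 in LSO. Of the tested Purkinje cell markers Pcp2 rose with age by 0.89, or by 0.005 from the median over probe sets, and Car8 (-0.98) and Slc1a6 (-1.16) fell. The mean of the 4 Purkinje cell markers with a probe set was 6.13 to 7.09 on the 6 arrays, and their part in the Calb1 values was not tested.

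Further EF-hand proteins and other parts of calcium handling were read from lists of names. Of 8 tested genes for other buffers and S100 proteins, 5 rose and none fell, where 23.4% of all tested genes rose and 17.7% fell. The count of risers was 4 in 9 of 15 alternatives. They were led by S100b, an astrocyte and oligodendrocyte protein, at 1.60 ± 0.10 (limma adjusted p = 0.000389), then S100a4 at 0.98, S100a16 at 0.85 and S100a6 at 0.61. The list had a median of 0.59. Of 16 other neuronal sensors 3 rose and 3 fell, near the 23.4% and 17.7% of all tested genes, with a median of 0.00. Without any one of the LSO or MNTB arrays 1 rose. Cabp7, a calmodulin-like protein, rose by 2.19 ± 0.41 (adjusted p = 0.00892), Efhd1 by 1.23 and Cib1 by 0.36. The potassium channel partner Kcnip1 fell (-1.06, or -0.74 from the median over probe sets), as did the hippocalcin relatives Hpcal1 (-0.69) and Hpcal4 (-0.54). Efhd1, Cib1 and Hpcal4 passed in 10, 6 and 10 of 15 alternatives. Such counts are not of independent checks, since leaving out either array of a nucleus gives the same age difference.

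Calmodulin is the general calcium sensor. Of 4 tested genes for its regulators 1 rose and 1 fell, where 41.0% of all tested genes passed for age. Pcp4l1, a relative of the calmodulin-binding peptide Pcp4, rose by 2.84 ± 0.18 (limma adjusted p = 0.000442), and Gap43, a growth cone protein that binds calmodulin, fell by 1.84. Pcp4 itself was at 12.3 to 12.6 on every array. Of 20 effectors 11 fell and 1 rose, against 17.7% and 23.4% of all tested genes, with a median of -0.36. Under the alternatives 8 to 11 fell and 0 to 2 rose. The falls were led by the kinase-like Camkv (-1.76), the calcium-stimulated adenylyl cyclase gene Adcy1 (-1.54) and the kinase genes Camk2a (-1.36, or -0.64 from the median over probe sets) and Camk4 (-1.23). The single riser was Rcan2, an inhibitor of calcineurin, at 0.53, which passed in 7 of 15 alternatives. Of 8 tested partners of the sensors 3 fell and none rose, against 17.7% and 23.4% of all tested genes: the metabotropic glutamate receptor gene Grm5, which Necab2 protein can bind (-1.46), the receptor kinase gene Grk3 (-0.81, passing in 13 of 15 alternatives) and the clathrin adaptor gene Ap2b1 (-0.63).

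Of 19 tested genes that remove or store calcium, 5 rose and 6 fell, against 23.4% and 17.7% of all tested genes, with a median of -0.12. The share of risers was near that of all tested genes. The exchanger gene Slc24a2 rose by 1.42 ± 0.31 (limma adjusted p = 0.0149), the mitochondrial uptake regulator Micu3 by 0.58, the pump gene Atp2b3 by 0.48 and the store channel gene Itpr2 by 0.36. These 4 passed in 13, 9, 10 and 9 of 15 alternatives. The store channel genes Ryr1 (-1.8) and Ryr3 (-1.24, or -0.71 from the median over probe sets) fell, and so did the exchanger genes Slc8a1 (-1.13) and Slc24a3 (-0.76). Without either MNTB array none of this list rose and 5 fell.

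**Figure D5:**
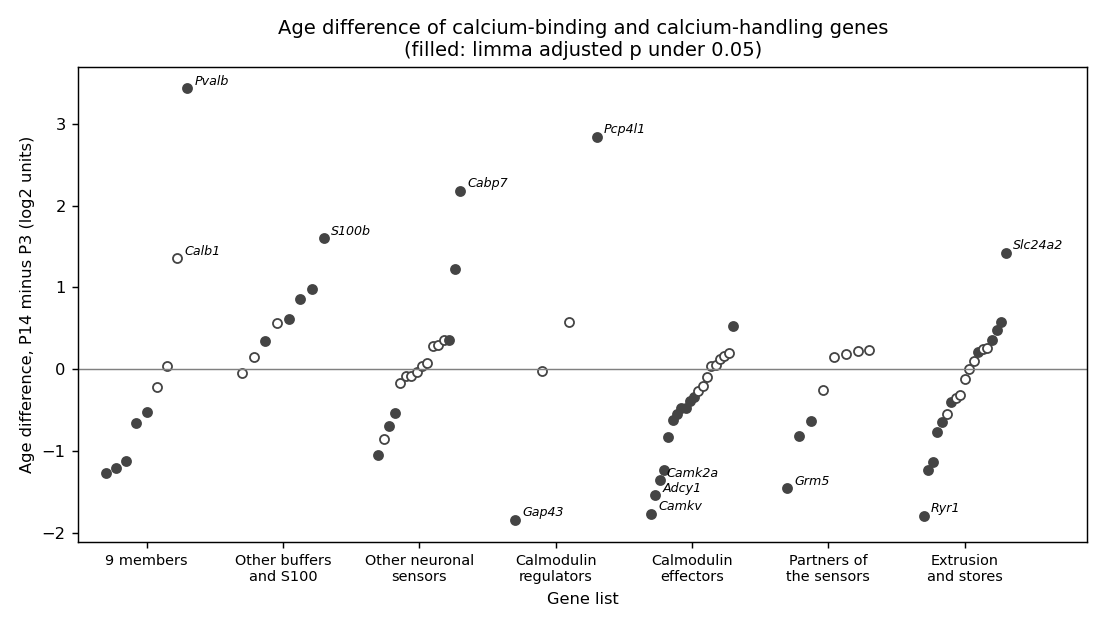
Age difference P14 minus P3 in log2 units (y axis) of every tested gene in 7 gene lists (x axis), ordered by size within a list and filled where the limma adjusted p was below 0.05; names are given from a size of 1.3. Most filled calmodulin effectors lie below 0, S100 genes above 0, and the lists of sensors and of extrusion and stores on either side.

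Over the 6 arrays the genes fell into like and opposed patterns, given here as descriptions of 6 points, 1 for each pool. Hpca, Ncald, Ncs1 and Necab2 resembled one another, with Pearson r of 0.84 to 0.91, and Pvalb mirrored them at -0.85 to -0.98. Calb1 and Necab1 were opposed at -0.98, with the 2 LSO arrays level and MNTB at P14 at the end of both ranges. For Necab1 that end value (3.86) lay in the background range, so each r given for Necab1 rests in part on a bound. Among genes that ranged over at least 1 log2 unit, those most like Pvalb were the tetraspanin gene Cd82, the circadian regulator Clock and Ddo, an oxidase of D-aspartate, all at 0.99, but 413 of 3442 genes reached 0.95. Few genes had the pattern of Calb1 (3 at 0.95 or above: Gmnn at 0.99, Mb and Doc2g at 0.96), of Calb2 (4, led by Ptges3l at 0.98, the secretogranin gene Scg2 at 0.97 and Prmt8 at 0.97) or of Necab1 (5, led by Mecom at 0.99, Cyria at 0.98 and Dclk3 at 0.96). Doc2g and the myoglobin gene Mb were, like Calb1, highest on the MNTB array of P14, at 7.93 and 7.85 against at most 6.07 and 6.57 elsewhere. Hpca was most like Plekha5, Lipt1 and Fads3 (0.99 each), Ncald like Ryr3 (0.995), Ifngr2 and Efnb1, Ncs1 like Fstl5 (0.997), Camk2a and Wdr17, and Necab2 like Cspg5 (0.999), Chd5 and Psd. Such matches were common, since 138 genes reached 0.95 for Hpca, 123 for Ncald, 39 for Ncs1 and 272 for Necab2. For Vsnl1, whose 6 values spanned too little to give a pattern, the 3 highest were Jun, Lgals1 and Nrp2 at 0.98 to 0.95.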

How the data were processed

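RNA of 6 pools was amplified and hybridised to 1 array each. The authors deposited log2 values made with RMA, per the submitters' processing notes; the RMA version, annotation and scan batches were not found in the labels, and batch was not tested. Of 45101 probe sets, 34945 name 1 gene in the platform annotation, 932 several and 9160 none; 34741 matched RefSeq and no symbol changed. For each gene the probe set with the highest mean was kept, names ending in _x_at aside where another existed. Genes with a mean at or above the 40th percentile (5.57) were tested with limma 3.58.1 in R 4.3.3 (age plus nucleus, trended variances, two-sided, Benjamini-Hochberg over 12958 genes, threshold 0.05; 2 residual and 3.95 prior degrees of freedom). The residual spread quoted is limma's moderated residual SD. The script was tested on simulated data. Members and gene lists were chosen with earlier results of these data known. Named from each list were up to 4 risers and 4 fallers that passed, and per member the 3 most correlated genes; other marker genes were named after their values were seen. Alternatives changed the filter, probe set choice, scaling, floor, model, variance trend and arrays used, and are not independent of one another. With 6 arrays, their number sets the precision. Some listed genes are not reported here.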

Additional observations from a re-analysis of the deposited data

How the results depend on the processing

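Of 568 differences of the 9 genes under alternatives, 535 kept their side of the threshold or moved by less than the spread, 10 lost a call (Necab1, Ncs1), 4 gained one (Calb1, Pvalb) and 19 moved under the untested scaling to neuron markers; no call reversed. Pvalb, Hpca, Necab2 and Ncald passed for age in every tested alternative. Leaving out 1 array gave 3142 to 4710 genes for age (5317 in all; lowest when an MNTB array was left out, at 3142 for P3 and 3176 for P14), 4 to 99 for MNTB minus LSO (21), 17 to 215 for MNTB minus VCN (78) and 4 to 159 for VCN minus LSO (48). Without age in the model these 3 contrasts gave 1, 0 and 1 genes, and the filter at the 60th percentile gave 51 for MNTB minus VCN and 29 for VCN minus LSO. Fewer genes tested and fewer arrays are part of these alternatives; other causes were not tested. With the median of probe sets or the 60th percentile, Necab1 fell under the filter and gave no value. Pooled tissue, 1 array per nucleus and age and no repeated pool limit every value, and probe sets near the background range give bounds only.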
